A study of Mus musculus with 4 samples.

Results

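Acute phase proteins are plasma and secretory proteins whose levels change in inflammation, and 10 mouse genes of this class were followed here in mammary epithelial cells: Hp, Hpx, Cp, Lcn2, Ltf, Saa1, Saa2, Saa3, Orm1 and Orm2. The genes were chosen after the deposited values had been seen, since the difference in Hp (haptoglobin) between the 2 cell lines had put them forward, and every probe carrying one of these gene names was taken. They are 10 of the 28146 names on the array and were measured by 12 of its 41174 probes that are not controls. For this reason their differences between the lines are given as a description, with no p, and counts of their calls in a fit over the whole array are given only beside the share of all probes called.

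RNA came from EV-50 and shGR-19, which are puromycin-resistant derivatives of EPH-4, a non-malignant mouse mammary epithelial line. EV-50 carries the empty H1-2 vector and has normal glucocorticoid receptor (GR) status by its labels, and shGR-19 carries a short hairpin RNA against GR, the receptor encoded by Nr3c1, and is labelled as GR depleted. Both lines were grown in medium without serum and with 2 µg/ml puromycin, and neither received a glucocorticoid, so that the comparison concerns the receptor without added hormone. Each line is 1 selected clone, and a difference between clones cannot be told apart from an effect of the hairpin. Each line was labelled with Cy3 from 300 ng RNA and hybridized to 2 Agilent arrays, and since no source names separate cultures, the spread between duplicates may be technical only.

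In the liver, most acute phase genes are induced by interleukin-6, acting through STAT3, and by interleukin-1 and tumor necrosis factor, acting through NF-kB, with C/EBP proteins at many of their promoters. Glucocorticoids are known to enhance this induction. Haptoglobin and hemopexin capture free hemoglobin and heme, ceruloplasmin oxidizes iron, and lipocalin 2 and lactoferrin withhold iron from microbes. Several of these genes are also made by mammary epithelium, above all during involution and infection.

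The probes are 60 bases long. Shown are those of the 5 members that were lower in shGR-19 than in EV-50 without overlap in the deposited values. The Saa3 probe is added because its annotation names 2 genes. Lower without overlap were also 35.3% of all 24443 probes kept by the filter given below, which Lcn2 and Orm1 did not pass. None of the probes shown carries a marked base.
Hp: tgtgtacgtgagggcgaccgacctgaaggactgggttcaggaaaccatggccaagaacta
Cp: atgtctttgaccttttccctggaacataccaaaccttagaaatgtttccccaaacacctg
Lcn2: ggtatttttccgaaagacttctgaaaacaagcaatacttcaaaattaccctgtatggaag
Orm1: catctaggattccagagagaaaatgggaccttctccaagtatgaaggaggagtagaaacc
Orm2: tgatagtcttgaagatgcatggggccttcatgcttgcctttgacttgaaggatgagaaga
Saa3: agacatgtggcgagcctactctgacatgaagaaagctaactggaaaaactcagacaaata

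By the probe annotation in the files, which uses mouse build mm9, the Hp probe lies at chr8:112099172-112099231 and the Cp probe at chr3:19889075-19889134. The Lcn2 probe covers chr2:32241037-32241281 and the Orm1 probe chr4:63006483-63007090, stretches of 245 and 608 bases that are longer than the probe, so that both probes join exons across an intron. The Orm2 probe lies at chr4:63024979-63025038, close to Orm1, and the Saa3 probe at chr7:53968031-53968090. Orm1 and Orm2, like Saa1, Saa2 and Saa3, are neighboring paralogs. No 2 of the 12 probes share a run of more than 9 bases. The probes were not compared with the transcripts of the paralogs, so that this does not show whether a probe also binds a paralog. The annotation of the Saa3 probe lists RefSeq transcripts of 2 genes, Saa3 and Saa1, and its signal is therefore uncertain between them.

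The arrays must be described before the results. All 4 arrays were on 1 slide with 1 scan date, and from 23290 to 27358 of their 43379 spots were well above background. Over the 10267 brighter probes, the SD of the log2 difference was only 0.0801 between the scanner arrays that carry the number 1, although these are labelled as different lines, whereas it was 0.516 within EV-50 and 0.621 within shGR-19. In the table of values that the authors deposited for the same samples, this SD was 0.0961 and 0.0854 within the lines and 0.443 to 0.452 between them. The contrast of the lines in the table correlated across probes with the contrast of the scanner arrays labelled replicate 2 (r = 0.954) and hardly with that of the arrays labelled replicate 1 (r = 0.131); probes are not independent replicates. The arrays labelled replicate 1 thus hardly show the contrast that the table gives for these lines. The cause was not tested, and every member is given from both sources. Scanner signals below are log2 values from which the array's 75th percentile was subtracted, and table values are log2 values relative to the median of the probe over the 4 columns.

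Nr3c1, the target of the hairpin, served to check the labels. In the table its brightest probe had values of 0.98 and 0.95 in EV-50 and of -0.95 and -0.98 in shGR-19. This is a 3.83-fold lower level in shGR-19 (log2 difference -1.94, SE 0.05; limma adjusted p = 0.00216). On the scanner arrays its signal was 1.81 and 1.92 for EV-50, 1.46 for the array labelled shGR-19 replicate 1 and -0.03 for that labelled shGR-19 replicate 2. The table columns and the scanner arrays labelled replicate 2 thus differed in the direction of the labels by several fold, and the scanner arrays labelled replicate 1 by a log2 difference of -0.35. All 4 kept Nr3c1 probes were lower in shGR-19 in both sources.

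The epithelial origin was visible in the markers. Of 10 mammary epithelial markers, such as Krt8, Krt18 and Epcam, 9 or 10 were well above background on every array, with a summed level (relative to the 75th percentile) from 911 to 952 in EV-50 and from 774 to 988 in shGR-19. Acute phase genes are best known from liver, and the hepatocyte marker Alb was well above background on none of the 4 arrays, as were Apoa2, Cyp2e1, Cps1 and Fgb, with summed levels of the 8 hepatocyte markers of 0.228 to 0.254 in EV-50 and 0.247 to 0.388 in shGR-19. Adipoq and Lep, of 6 adipocyte markers, and Ptprc, Itgam and Emr1, of 9 leukocyte markers, were not well above background on any array either. The summed levels were 0.239 to 0.368 in EV-50 and 0.233 to 0.304 in shGR-19 for the adipocyte list, and 0.552 to 0.684 and 0.599 to 0.626 for the leukocyte list. In replicate order, 1 and 1 of the 8 hepatocyte markers were well above background in EV-50, and 3 and 2 in shGR-19. For the adipocyte list these counts were 1 and 2, and 2 and 3. For the leukocyte list they were 4 and 4, and 4 and 3. Of 6 fibroblast markers, 1 and 3 were well above background in EV-50, and 2 and 5 in shGR-19. Dcn was above background on no array. The summed level of the fibroblast list was 1.69 and 3.11 in EV-50 and 1.63 and 34.4 in shGR-19, the last on the array labelled replicate 2. S100a8 of the leukocyte list (9.57-fold lower in the table) and the basal keratin Krt14 (2.18-fold lower) were lower in shGR-19 and the collagen gene Col1a2 was 9.63-fold higher (limma adjusted p = 0.00173, 0.00332 and 0.00120). By the calls defined below, 2 of 2 kept fibroblast markers were higher in the table (median log2 difference 2.22). Called lower were 1 of 9 kept epithelial and 1 of 4 kept leukocyte markers. Of the 2 kept hepatocyte and 2 kept adipocyte markers, 0 were called. Of all kept probes, 1.87% were called higher and 2.39% lower. The part of these shifts in the results below was not tested. In RNA from whole cultures, fewer cells of a type and less RNA per cell cannot be told apart.

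**Figure D1:**
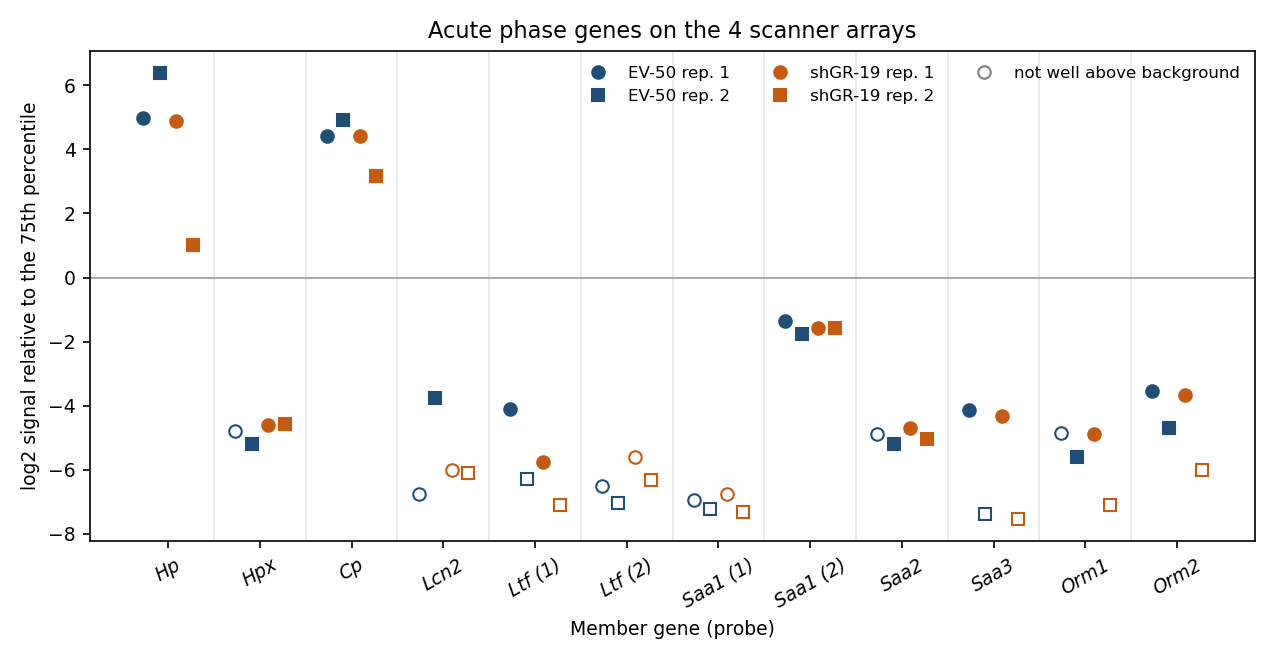
Scanner signal of the 12 probes of the acute phase genes on the 4 arrays (log2, relative to the 75th percentile of each array; blue EV-50, orange shGR-19, circles replicate 1, squares replicate 2, open symbols not well above background). The arrays labelled replicate 1 lie together for Hp and Cp, while those labelled replicate 2 stand apart, with Hp at 6.38 in EV-50 and 1.01 in shGR-19.

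Haptoglobin, which binds free hemoglobin, showed the largest difference of the 10 genes. Its table values were 2.60 and 2.61 in EV-50 and -2.61 and -2.60 in shGR-19. The lines did not overlap, and shGR-19 was 37.0-fold lower (log2 difference -5.21; SD 0.0034 in EV-50 and 0.0043 in shGR-19, n = 2 each). Among the 21179 probes that were well above background on all 4 arrays, the Hp probe had the 3rd lowest difference in the table. Between the scanner arrays labelled replicate 2, whose contrast the table follows, it was also the 3rd lowest, so that the ranks are not separate measurements. They are a description, since this difference had put the members forward.

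On the scanner arrays the Hp signal was 4.98 and 6.38 for EV-50 and 4.88 and 1.01 for shGR-19. The array labelled shGR-19 replicate 2 was thus 41.3-fold below that labelled EV-50 replicate 2, while the arrays labelled replicate 1 differed by -0.10 and lay between these levels. The line means differed by -2.73 (SE 1.41), and by -0.80 with replicate 2 of shGR-19 removed. In fluorescence units, the spot read 16636 and 48682 in EV-50 and 15218 and 1169 in shGR-19, so that it was well above background in every case.

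Ceruloplasmin (Cp), the copper-carrying ferroxidase of plasma, was also lower in shGR-19. Its table values were 0.97 and 0.96 in EV-50 and -0.96 and -1.05 in shGR-19, with no overlap and a 3.91-fold lower level in shGR-19 (log2 difference -1.97; SD 0.0098 and 0.0642). The scanner signal was 4.42 and 4.91 for EV-50 and 4.42 and 3.17 for shGR-19. The 2 arrays labelled replicate 1 had the same signal to 2 decimals, and those labelled replicate 2 differed by -1.74. The line means differed by -0.87 (SE 0.50), and by -0.24 with the same array removed. Among the probes ranked for Hp, the Cp probe was number 132 of 21179 from the lowest difference in the table. Between the scanner arrays labelled replicate 2 it was number 184.

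**Figure D2:**
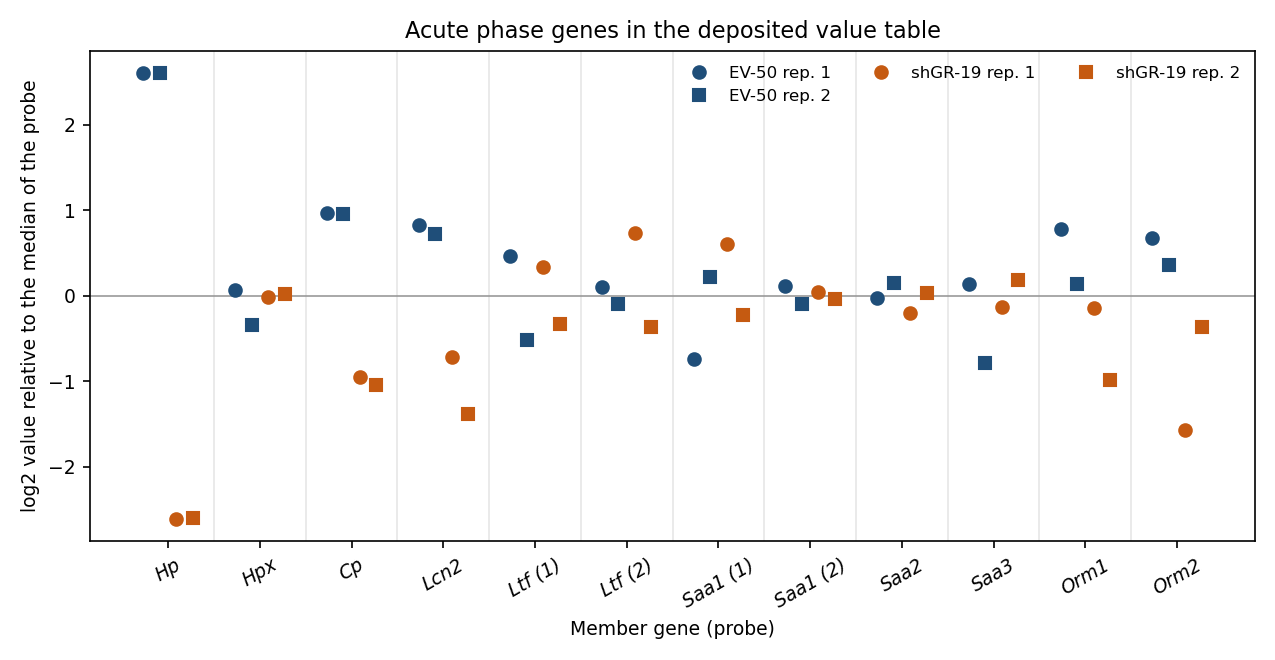
Deposited table values of the same 12 probes (log2, relative to the median of each probe over the 4 columns; symbols as for the scanner signals). The lines are separate for Hp, Cp, Lcn2, Orm1 and Orm2, and overlap for Hpx, Ltf and the Saa genes. Both shGR-19 columns were also below both EV-50 columns for 35.3% of all kept probes, which do not include Lcn2 and Orm1.

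Hemopexin (Hpx), which carries free heme, did not follow haptoglobin. Its table values were 0.07 and -0.35 in EV-50 and -0.02 and 0.02 in shGR-19, so that the lines overlapped (log2 difference 0.14). The scanner signal was dim, at -4.78 and -5.18 for EV-50 and -4.62 and -4.57 for shGR-19, and was not well above background on the array labelled EV-50 replicate 1. The mean of the shGR-19 arrays was 0.38 above that of the EV-50 arrays, and 0.09 above it after normexp background correction. In fluorescence units, the spot read 19.3 and 16.1 in EV-50 and 21.0 and 24.3 in shGR-19. The probe passed the filter given below through shGR-19 alone.

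Lipocalin 2 (Lcn2), which binds the iron carriers of bacteria, was well above background on a single array, that labelled EV-50 replicate 2. The scanner signal was -6.76 and -3.75 for EV-50 and -6.01 and -6.09 for shGR-19. The array labelled EV-50 replicate 1 lay below both arrays of shGR-19, and without the array labelled EV-50 replicate 2 the difference turned to 0.71. No fold between the lines is therefore given from the scanner arrays. In the table the values were 0.83 and 0.72 in EV-50 and -0.72 and -1.38 in shGR-19, which do not overlap (log2 difference -1.83). The Lcn2 probe failed the filter on dim probes and did not enter any fit.

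Lactoferrin (Ltf), the iron-binding protein of milk, was measured by 2 probes. The first, A_51_P188141, joins exons across an intron and was well above background only on the arrays labelled replicate 1, with signals of -4.11 and -6.28 for EV-50 and -5.75 and -7.10 for shGR-19. Its table values were 0.46 and -0.52 in EV-50 and 0.34 and -0.34 in shGR-19, so that the duplicates of each line lay farther apart than the lines. The second, A_52_P15388, was well above background on none of the 4 arrays.

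Saa1 and Saa2 encode the serum amyloid A proteins of the circulation. The brighter Saa1 probe, A_52_P318673, was well above background throughout, with table values of 0.11 and -0.09 in EV-50 and 0.04 and -0.04 in shGR-19. The lines overlapped, and the log2 difference was -0.01. The probe ranked 10091 of 21179 from the lowest difference in the table, close to the middle, and 14746 between the scanner arrays labelled replicate 2. Its scanner signal was -1.37 and -1.77 for EV-50 and -1.58 and -1.59 for shGR-19. The other Saa1 probe, A_51_P361650, was well above background on no array.

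The Saa2 probe was dim, at -4.89 and -5.20 for EV-50 and -4.71 and -5.04 for shGR-19 on the scanner arrays. Replicate 1 of EV-50 did not show it well above background, and its table values overlapped between the lines (log2 difference -0.15). Saa3 encodes the serum amyloid A that is mainly made outside the liver, in the mammary gland among other tissues. Its probe was well above background only on the arrays labelled replicate 1, at -4.13 for EV-50 and -4.31 for shGR-19, against -7.38 and -7.52 on those labelled replicate 2. In the table the Saa3 values of the lines overlapped, from -0.78 to 0.14 in EV-50 and from -0.14 to 0.19 in shGR-19.

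Orm1 and Orm2 encode alpha-1-acid glycoproteins, carriers of basic drugs and lipids in plasma. The Orm2 scanner signal was -3.54 and -4.71 for EV-50 and -3.67 and -6.02 for shGR-19, where the last was not well above background. Its table values were 0.68 and 0.36 in EV-50 and -1.57 and -0.36 in shGR-19, without overlap (log2 difference -1.49, SE 0.47), but the shGR-19 duplicates lay farther apart than those of Hp and Cp (SD 0.858). Between the arrays labelled replicate 2 it differed by -1.31, and between those labelled replicate 1 by -0.13.

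Orm1 was well above background on 1 array of each line, replicate 2 of EV-50 and replicate 1 of shGR-19, and its scanner signal was -4.86 and -5.60 for EV-50 and -4.89 and -7.11 for shGR-19. Its table values were 0.78 and 0.14 in EV-50 and -0.14 and -0.99 in shGR-19, again without overlap (log2 difference -1.03). The probe did not pass the filter on dim probes. Both orosomucoid probes thus lay lower in shGR-19 in the table, near the limit of detection.

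**Figure D3:**
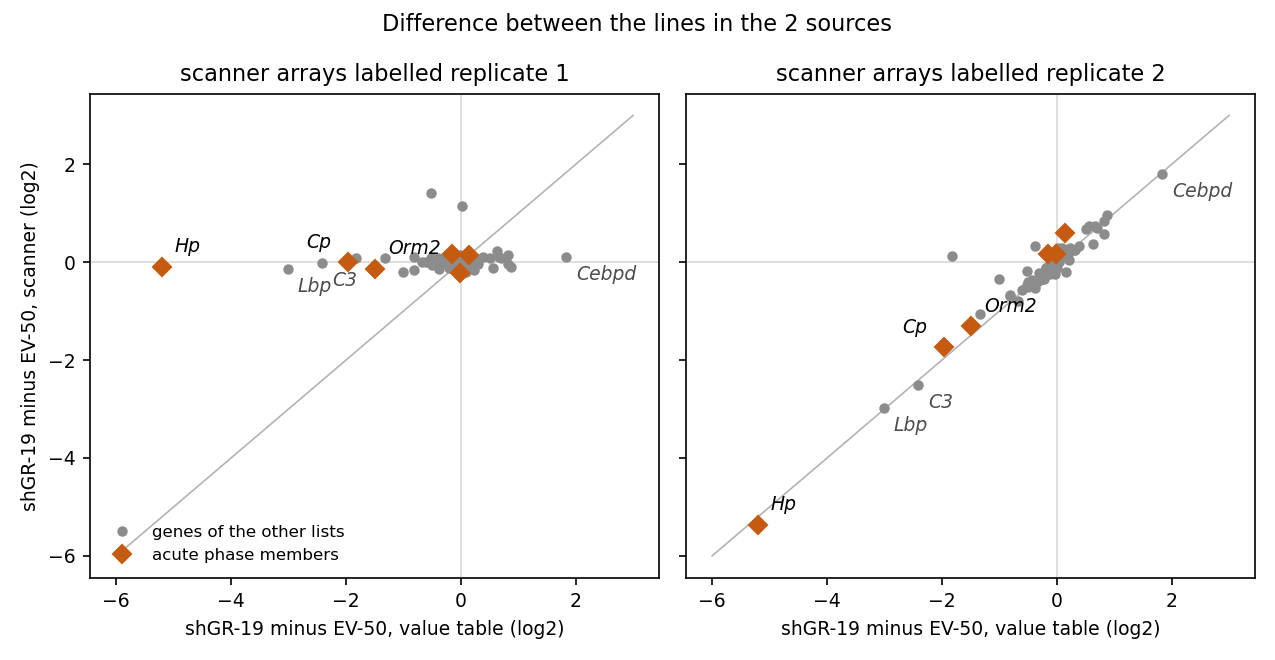
Log2 difference of shGR-19 minus EV-50 in the value table, horizontal, against that between the scanner arrays labelled replicate 1 (left) and replicate 2 (right), for the 6 acute phase members that were kept (orange) and the kept genes of the related lists (gray), with the line of equality. Most points follow the line for replicate 2, with Hp at -5.37 against -5.21 in the table, and most lie near 0 for replicate 1.

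The filter, which asked that both arrays of a line show the probe well above background, kept 24443 probes and 6 of the 10 genes (Hp, Hpx, Cp, Saa1, Saa2 and Orm2), while Lcn2, Ltf, Saa3 and Orm1 were not kept. Orm2 passed through EV-50 alone, and Hpx and Saa2 through shGR-19 alone. Calls needed a limma adjusted p below 0.01 and a change of over 2-fold. Of the kept genes, 2 (Hp and Cp) were called lower in the table and none higher, and of all kept probes 2.39% were called lower and 1.87% higher. From this nothing is read about the genes, which were chosen from that contrast. Without any test, Hp, Cp and Orm2 were more than 2-fold lower in the table, as were 3.49% of all kept probes, and the same 3 genes between the scanner arrays labelled replicate 2, as were 3.16%. None of the 6 was more than 2-fold lower between the arrays labelled replicate 1, where 1.11% of all kept probes were. Both shGR-19 columns were below both EV-50 columns for Hp, Cp and Orm2, as for 35.3% of all kept probes. On the scanner arrays both of shGR-19 were below both of EV-50 for Hp alone, as for 6.14% of all kept probes. With all 4 scanner arrays, limma called 0 probes and 0 of these genes (4.26% were called in the table), and 209 probes but none of the 6 genes had an unadjusted p below 0.05. With any 1 column of the table left out, limma called 0 probes and 0 of these genes, while from 9066 to 9824 probes had an unadjusted p below 0.05.

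The signals that drive acute phase genes were examined from lists of their pathways, written with earlier results of these data known. The question was whether other genes of these pathways differed between the lines. Over the lists of interleukin-6 family signaling, interleukin-1, TNF and NF-kB signaling, transcription factors, other acute phase genes and iron and heme handling, 58 genes were kept and 5 were called in the table by their brightest probe, 1 higher (Cebpd) and 4 lower (Tnf, Il1rn, C3 and Lbp), against 1.87% and 2.39% of all kept probes. By any kept probe 7 genes were called, with Traf6 and Lrp1 as further higher ones. For these lists limma called 0 on the scanner arrays and 0 with any table column left out. The calls below therefore rest on all 4 columns. Each p in this report sets 1 clone against 1 other over the spread of duplicate arrays, which may be technical only. It does not measure an effect of the hairpin, and for lists written with earlier results known it is a description.

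Of 16 interleukin-6 family genes, 15 were on the array and 14 were kept and 0 were called. Without the limit on fold and by the brightest probe, 3 had an adjusted p below 0.01 and were higher in shGR-19, and 0 were lower, against 5.53% and 6.04% of all kept probes. Socs3, the feedback inhibitor of STAT3 signaling, was among them, with table values of -0.33 and -0.34 in EV-50 and 0.33 and 0.41 in shGR-19 (1.63-fold higher; limma adjusted p = 0.00646). Clcf1, a cytokine of the family, was 1.59-fold higher and the kinase gene Jak2 was 1.47-fold higher (limma adjusted p = 0.00564 and 0.00775). The receptor subunit gene Il6st and the transcription factor gene Stat3 differed by 0.11 and -0.17, and Osmr, the oncostatin M receptor, by -0.67 (limma adjusted p = 0.160, 0.0713 and 0.0125). The second, dimmer Osmr probe differed by -0.60 and passed (limma adjusted p = 0.00808). Il6 itself was well above background on no array. The median difference of the list was 0.03, beside 0.01 over all kept probes.

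Of 19 genes of interleukin-1, TNF and NF-kB signaling, 17 were kept, 2 were called lower and 0 higher by their brightest probe, against 2.39% and 1.87% of all kept probes. The interleukin-1 receptor antagonist gene Il1rn had table values of 0.71 and 0.63 in EV-50 and -0.63 and -0.68 in shGR-19 (2.51-fold lower; limma adjusted p = 0.00332). The cytokine gene Tnf had 0.45 and 0.52 in EV-50 and -0.60 and -0.45 in shGR-19 (2.01-fold lower; limma adjusted p = 0.00634), just past the 2-fold limit. On the scanner arrays Tnf differed more between replicate numbers than between lines, at -1.99 and -4.60 for EV-50 and -2.19 and -4.95 for shGR-19. Without the limit on fold, 4 of the 17 genes were lower at a limma adjusted p below 0.01 by their brightest probe, and 0 were higher. Of all kept probes, 6.04% were lower and 5.53% higher at that adjusted p. Besides Il1rn and Tnf, these genes were Relb and Myd88, an NF-kB subunit and an adaptor. They were lower by 0.61 and 0.52 on the log2 scale, which is under 2-fold. The NF-kB inhibitor gene Nfkbia (-0.37), the subunit gene Rela (-0.20), the receptor gene Il1r1 (0.31) and the coactivator gene Nfkbiz (0.30) did not pass the test (limma adjusted p = 0.0236, 0.0451, 0.0263 and 0.0435). The median of the list was -0.31. Il1a and Il1b were well above background on no array, and a second, dimmer probe of the adaptor gene Traf6 was called higher, while its brightest probe was not.

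Among 10 transcription factors, 7 were kept. The C/EBP family, whose members bind many acute phase promoters, differed in both directions. Cebpd had table values of -0.95 and -0.90 in EV-50 and 0.90 and 0.93 in shGR-19, and was 3.58-fold higher (limma adjusted p = 0.00223). Cebpb had 0.44 and 0.38 in EV-50 and -0.42 and -0.38 in shGR-19, and was 1.76-fold lower (limma adjusted p = 0.00492). Cebpg, which lacks an activation domain of its own, was 1.77-fold higher (limma adjusted p = 0.00692). The scanner arrays labelled replicate 2 gave differences of 1.81 for Cebpd, -0.69 for Cebpb and 0.85 for Cebpg, and those labelled replicate 1 gave 0.10, 0.12 and 0.14. Cebpa was dim and its difference of -0.52 did not pass (limma adjusted p = 0.280). Cebpd was the only factor called, 1 of 7 kept, against 1.87% of all kept probes called higher. Without the limit on fold, 2 of the 7 (Cebpd and Cebpg) were higher and 1 (Cebpb) was lower at a limma adjusted p below 0.01. Of all kept probes, 5.53% were higher and 6.04% lower at that adjusted p.

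**Figure D4:**
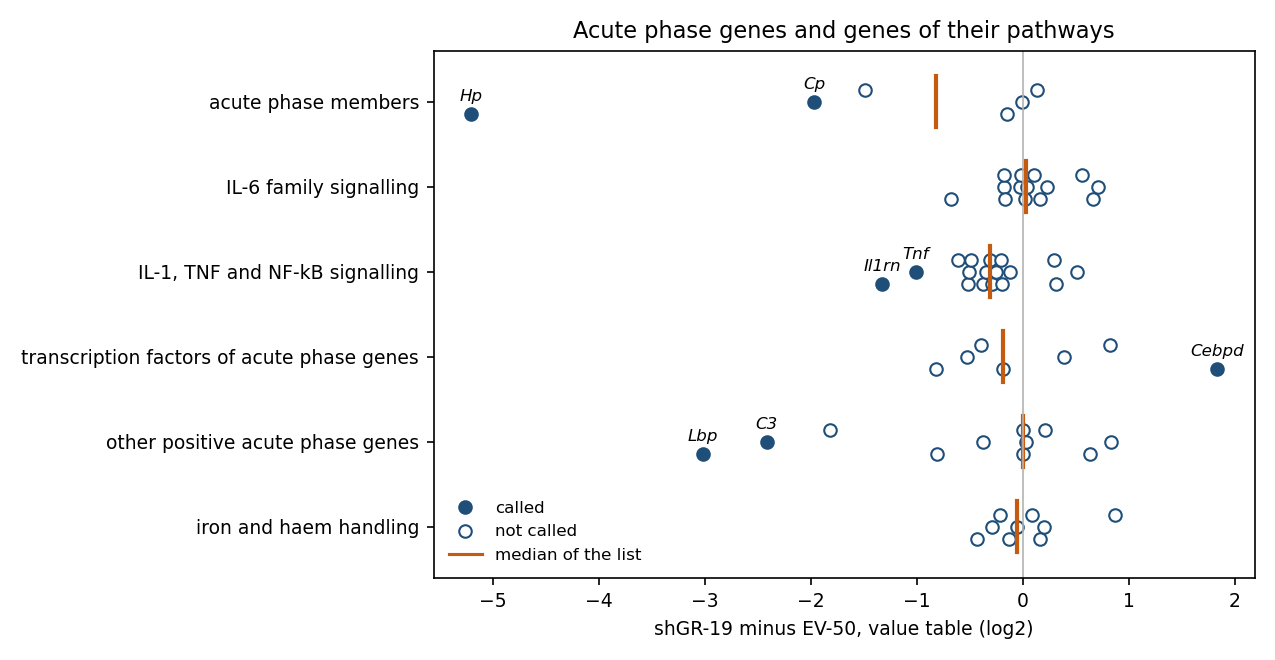
Table difference of shGR-19 minus EV-50 (log2) for the acute phase members and the genes of 5 related lists, each by its brightest kept probe, with filled points called at more than 2-fold and an adjusted p below 0.01, open points not called, and a bar at the median of each list. Hp at -5.21 is the lowest point, and Lbp, C3 and Cebpd stand apart in their lists.

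Of 24 other positive acute phase genes, 22 were on the array and 11 were kept, of which 2 were called lower and 0 higher, against 2.39% and 1.87% of all kept probes. Lbp, which presents bacterial lipopolysaccharide to its receptor, had table values of 1.50 and 1.51 in EV-50 and -1.50 and -1.53 in shGR-19 (8.09-fold lower; limma adjusted p = 0.00131). The complement gene C3 had 1.21 in both EV-50 columns and -1.21 in both shGR-19 columns (5.35-fold lower; limma adjusted p = 0.00173), and its second kept probe gave -2.41 against -2.42 for the first. Between the scanner arrays labelled replicate 2, Lbp differed by -2.99 and C3 by -2.51, and between those labelled replicate 1 by -0.14 and -0.02. Without the limit on fold, 3 of the 11 were lower and 1 was higher at a limma adjusted p below 0.01. Of all kept probes, 6.04% were lower and 5.53% higher at that adjusted p. Besides Lbp and C3, these were the lipopolysaccharide receptor gene Cd14, 1.76-fold lower, and the metallothionein gene Mt2, 1.78-fold higher (limma adjusted p = 0.00447 and 0.00636). Mt2 differed more between replicate numbers than between lines on the scanner arrays, at 5.64 and 1.38 for EV-50 and 5.60 and 1.95 for shGR-19. The median of the list was 0.00. Cfb, Fgb and Serpina3n were well above background on no array. Of 8 genes that fall in the acute phase response of the liver, Trf alone was kept, with a difference of -0.26.

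Genes that receive or process what these proteins bind were examined in the same way. Of 12 genes of iron and heme handling, 9 were kept and 0 were called by their brightest probe, and the median difference was -0.05. Lrp1, the receptor of the hemopexin and heme complex, was 1.83-fold higher in shGR-19 (limma adjusted p = 0.00457), and its second, dimmer probe was 2.39-fold higher and passed both limits. By the brightest probe, Lrp1 was the 1 gene of the 9 that was higher at a limma adjusted p below 0.01, and 0 were lower. Of all kept probes, 5.53% were higher and 6.04% lower at that adjusted p. Hmox1, which breaks down heme, differed by -0.43 (limma adjusted p = 0.0135). Slc22a17, a receptor of lipocalin 2, the iron exporter gene Slc40a1 and the transferrin receptor gene Tfrc differed by 0.09, -0.13 and -0.05 (limma adjusted p = 0.661, 0.149 and 0.521). Cd163, the haptoglobin and hemoglobin receptor of macrophages, was well above background on no array.

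The promoters of the members were searched for the letters of the factors above. RefSeq sequences of build GRCm38.p6, taken as 250 bases before the start of transcription on both strands, were at hand for 8 of the 10 genes, that is, all but Hp and Orm1. The C/EBP letters TTNNGNAAT were found in 4 of the 8 (Ltf, Orm2, Saa1 and Saa2) and in 10.2% of 32851 promoters searched in the same way. The NF-kB letters, GGGA and CC parted by 4 bases, were found in Cp only (17.6% of all), at 1 of its 2 annotated starts. The STAT letters TTCNNNGAA (7.02% of all) and the GR letters, GNACA and TGTNC parted by 3 bases (0.387% of all) were found in none of the 8. A match describes these letters only, and its absence says nothing about the factor.

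The promoters of Cp, Orm2, Saa1 and Saa2, the kept members with a match, are shown with the matching letters in capitals. They lie at chr3:19956999-19957248 (plus strand), chr4:63362199-63362448 (plus), chr7:46742981-46743230 (minus) and chr7:46751583-46751832 (plus) of GRCm38.p6, in this order.
Cp: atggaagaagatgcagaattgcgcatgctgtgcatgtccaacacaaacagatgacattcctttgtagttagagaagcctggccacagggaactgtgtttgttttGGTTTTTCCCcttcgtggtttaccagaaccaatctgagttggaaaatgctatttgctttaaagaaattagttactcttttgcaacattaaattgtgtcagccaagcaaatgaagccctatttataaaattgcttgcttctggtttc
Orm2: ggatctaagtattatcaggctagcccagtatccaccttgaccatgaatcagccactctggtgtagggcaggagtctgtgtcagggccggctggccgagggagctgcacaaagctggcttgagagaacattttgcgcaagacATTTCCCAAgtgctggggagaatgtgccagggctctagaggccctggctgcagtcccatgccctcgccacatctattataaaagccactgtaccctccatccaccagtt
Saa1: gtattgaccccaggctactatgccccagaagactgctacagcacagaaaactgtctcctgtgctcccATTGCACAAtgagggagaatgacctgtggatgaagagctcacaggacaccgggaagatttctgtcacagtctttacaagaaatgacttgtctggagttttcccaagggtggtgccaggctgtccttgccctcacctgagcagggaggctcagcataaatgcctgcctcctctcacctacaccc
Saa2: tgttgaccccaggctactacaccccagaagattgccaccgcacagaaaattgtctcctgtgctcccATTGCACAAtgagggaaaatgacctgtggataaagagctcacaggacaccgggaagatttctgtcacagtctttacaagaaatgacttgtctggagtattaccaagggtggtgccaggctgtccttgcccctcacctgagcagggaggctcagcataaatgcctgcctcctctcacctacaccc
Saa1 and Saa2 carry the same 9 matching letters, and Orm2 carries C/EBP letters as well. Whether any of these letters bears on the differences between the lines was not tested.

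The genes whose pattern lay nearest to that of Hp were taken by the root mean square distance over the 4 arrays, after the mean of each probe was removed, among probes well above background on all arrays. In the table these were 1700016M24Rik (distance 0.0882), Mtrf1 (0.255), Oas1a (0.325), Slc7a4 (0.430) and Plekha6 (0.446). On the scanner arrays they were Mtrf1 (0.221), 4930452B06Rik (0.374), Jam2 (0.486), 1700016M24Rik (0.494) and Slc7a4 (0.589). Mtrf1, which encodes a mitochondrial translation release factor, 1700016M24Rik and Slc7a4 were on both lists. Mtrf1 had scanner signals of -1.62 and -0.49 for EV-50 and -1.46 and -5.87 for shGR-19. As with Hp, its arrays labelled replicate 1 lay between those labelled replicate 2. Besides Hp, only Cp and Saa1 of the acute phase genes were among the probes compared, and neither was among these nearest genes. The distance was not scaled for the size of a difference. Cp and Saa1, with table differences of -1.97 and -0.01 against -5.21 for Hp, therefore lie far from Hp whatever their shape.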

How the data were processed

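RNA of EV-50 and shGR-19 was hybridized to 2 one-colour Agilent arrays each. The authors deposited spot intensity with background subtracted, from Agilent Feature Extraction 10.5.1.1, and a table of log2 values from GeneSpring in which each probe is centred on its median (41174 of 41174 probes had a median within 0.0001 of 0). The log2 base and the direction of the table were set by the scanner arrays labelled replicate 2 (slope 0.952), and its scaling followed the recommended GeneSpring steps, whose details are not given in the sources used here. The column medians were 0.08, 0.04, -0.06 and -0.06. Intensities were turned to log2 and scaled to each array's 75th percentile, outlier spots (74 to 139 an array) were left out, no spot was saturated (0), and spots of a probe were averaged. A probe counted as well above background where at least 0.5 of its spots were. Both sources were fitted with limma 3.58.1 in R 4.3.3 (lmFit, eBayes) with Benjamini-Hochberg adjustment over 24443 kept probes. With 2 arrays a line, the smallest p of an exact permutation test is 0.333, and none was used.

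The members and lists were chosen with earlier results of these data known. Named genes are all members with every probe, Nr3c1, preset genes of the lists by their brightest kept probe, called genes of lists with 5 or fewer calls, and the 5 genes nearest to Hp in each source; Clcf1, Jak2, Relb, Myd88, Traf6, Cebpg, Cd14, Mt2, Trf and the cell type markers were named after their values were seen. Alternatives were normexp (offset 50), quantile scaling, the percentile over detected probes, other filters and thresholds, no adjustment, leaving out each array, the other source and a block for the replicate number. Single replicate numbers were added after the data were seen. The reporter, protein and RT-PCR measurements were not used here.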

Additional observations from a re-analysis of the deposited data

How the results depend on the processing

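With the scanner files, limma called 0 probes and 0 acute phase genes under every background correction, scaling, filter, array left out and block that was tried, and 35 probes but 0 acute phase genes without adjustment. With the value table in their place it called 1042 probes and 2 of these genes, Hp and Cp, which were chosen with that contrast known. In the table, all probes kept gave 43 probes and 1 gene, and leaving out each column gave from 0 to 0 probes, 0 to 0 acute phase genes and 0 to 0 genes of the related lists, where all columns gave 5; the scanner files also gave 0 for these lists. The replicate numbers are 2 in each line and no label says what they mark; the deviations of equal numbers correlated at 0.706 in the scanner files and 0.430 in the table. With the replicate number as a block, limma called 0 probes, 0 acute phase genes and 0 genes of the related lists in the table, with 12085 probes at an unadjusted p below 0.05. The difference of Hp and of Cp was below 0 in both sources and under every scaling, and the scanner arrays labelled replicate 1 alone gave -0.10 for Hp and 0.00 for Cp. Of 156 alternative values of member probes, 24 had the opposite sign to the value from all scanner arrays, mostly at probes near background, where signal limits Lcn2, Ltf, Saa2, Saa3, Orm1, Orm2 and Hpx.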

Other observations

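The metallothionein genes Mt1 and Mt2, chosen here after their values were seen, separated the scanner arrays by replicate number. The Mt1 signal was 6.26 and 6.21 on the arrays labelled replicate 1 of EV-50 and shGR-19 and 2.49 and 2.36 on those labelled replicate 2, and the Mt2 signal was 5.64 and 5.60 against 1.38 and 1.95. The table columns of the same numbers did not show this split, with Mt1 values from -0.04 to 0.04. The Saa3 probe was well above background only on the arrays labelled replicate 1, but it was dim. It read 30.2 and 25.9 fluorescence units there for EV-50 and shGR-19, against 3.50 and 3.15 on those labelled replicate 2. Of the 10267 brighter probes, 513 differed by over 2-fold between the scanner arrays of EV-50 and 907 between those of shGR-19.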
